A study of Mus musculus with 18 samples.

Results

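Sialyltransferases are Golgi enzymes that cap the sugar chains of proteins and lipids with sialic acid. The 8 genes described here are 7 sialyltransferase genes, St3gal1 to St3gal6 and St6gal1, and B3gnt3, whose enzyme extends O-linked chains with N-acetylglucosamine before they are capped. They were chosen by name from the 18193 genes with values, because earlier results of these data showed St3gal4 and B3gnt3 higher after loss of E2f1-3. Their 18 probe sets are among 45101 on the array, and each gene is given by whichever of its probe sets was brightest on average over 18 arrays.

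Small-intestinal crypts of mice 2 months old were compared 2 days after deletion by Ah-cre, an inducible Cre of the intestine. The labels do not settle which of the E2f alleles were removed by the Cre and which were absent before it. Quadruple knockout crypts (E2f/Myc QKO, called QKO here; E2f1-3 and Myc deleted) gave 5 arrays, and triple knockout crypts (E2f TKO; E2f1-3 deleted) gave 5. Crypts with only Myc deleted (Myc KO) gave 4, and so did control crypts, whose alleles the labels do not describe. The Ah promoter comes from Cyp1a1, so an inducer of the Cre also acts on Cyp1a1 itself. All values are log2 probe set signals. Calls of presence or absence were not analysed here, and a signal near the array medians of 6.14 to 6.26 is not shown to be above background. Whether the arrays are separate mice is not stated, so p-values measure only the spread between these arrays.

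The mucus and the brush border of the gut are dense with such chains. Core structures on serine or threonine (O-glycans) and on asparagine (N-glycans) are lengthened by galactose and N-acetylglucosamine, then closed by sialic acid, fucose or sulfate. The ST3 enzymes link sialic acid to galactose at one position and St6gal1 links it at another, and those that use the same chain ends compete for them.

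The labels were checked before the results. Myc signals were 7.94 to 8.52 in QKO and 8.11 to 8.40 in Myc KO arrays, against 9.99 to 10.66 in E2f TKO and 9.69 to 10.30 in control arrays. E2f3 read 8.09 to 8.19 in QKO arrays, against 8.44 to 8.60 in Myc KO arrays. E2f TKO 1, 3 and 4 gave 8.22, 8.39 and 8.08 for E2f3. The remaining E2f TKO arrays, those labelled 2 and 5, gave 9.35 and 9.10, against 8.62 to 8.96 in control arrays. This pair also read 5.05 and 4.91 for Cyp1a1, against 12.66 to 14.09 in the other 16 arrays, so they stand apart and values that rest on them are given with and without them. E2f1 and E2f2 were not lower in QKO arrays, at 7.73 to 8.27 and 9.18 to 9.41, than in control arrays, at 7.70 to 8.05 and 8.91 to 9.28. Where their probe sets lie relative to the deleted exons was not analysed here, so they check nothing. Means of 6 epithelial marker genes (such as Epcam and Vil1) were 13.09 to 13.32 on every array, though single members moved in opposite directions. Krt18 read 11.64 to 11.93 in control and 12.40 to 12.79 in QKO arrays. Cdh1 read 12.44 to 12.56 in control and 11.89 to 12.28 in QKO arrays. In bulk crypts, fewer cells of a type and less RNA per cell cannot be told apart.

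The windows around the transcription starts of the genes that lead the results are shown here, to be set beside their change with E2f1-3 loss. They are RefSeq windows of GRCm38.p6, 250 bases before to 50 after the start, for 6 of the 8 genes (9 windows). St3gal4 is given from chr9:35116815-35117114 and B3gnt3 from chr8:71701751-71702050, both on the minus strand, in lower case with motif matches in capitals:
St3gal4: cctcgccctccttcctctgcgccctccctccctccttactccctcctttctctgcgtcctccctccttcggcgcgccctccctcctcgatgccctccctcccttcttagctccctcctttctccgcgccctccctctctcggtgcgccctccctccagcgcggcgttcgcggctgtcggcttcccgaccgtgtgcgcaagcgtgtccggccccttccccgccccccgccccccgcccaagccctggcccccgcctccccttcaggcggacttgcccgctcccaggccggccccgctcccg
B3gnt3: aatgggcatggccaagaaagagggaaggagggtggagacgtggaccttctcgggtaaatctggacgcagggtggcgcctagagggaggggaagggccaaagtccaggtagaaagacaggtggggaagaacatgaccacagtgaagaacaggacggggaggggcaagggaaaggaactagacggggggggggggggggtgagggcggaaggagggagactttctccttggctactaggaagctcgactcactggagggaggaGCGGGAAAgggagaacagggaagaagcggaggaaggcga

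The motifs searched on both strands were the E2f forms TTTCCCGC, TTTCGCGC, TTTGCCGC and TTTGGCGC and the E-box CACGTG, which Myc binds. The B3gnt3 window held 1 E2f match, GCGGGAAA, which is TTTCCCGC read on the other strand, just after the start. The St3gal4 window, 74.0% G and C, held none of these letters. Of all 32851 windows of this length, 2.26% held an E2f form and 7.15% the E-box. None of the 9 windows held the E-box, and the B3gnt3 window was the 1 of them with an E2f form. These matches are descriptions of letters.

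St3gal4 encodes an enzyme that sialylates galactose at the ends of N-acetyllactosamine chains, a step toward sialyl Lewis x. Its QKO arrays read 12.03, 11.96, 10.93, 10.15 and 11.40, and its E2f TKO arrays 12.69, 7.65, 12.04, 11.34 and 12.05. Its Myc KO arrays read 5.58, 6.27, 6.40 and 6.13, and its control arrays 5.89, 6.31, 7.13 and 5.90. Every array with E2f1-3 loss on its label was above every other array, and E2f TKO 2 was the one that came near them. The signals of Myc KO and control arrays lie about the array medians, so a fold against them is at best a lower bound.

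B3gnt3 encodes a transferase known for extending core O-glycans, for instance on ligands of L-selectin. It read 10.32, 10.59, 10.55, 10.27 and 10.59 in QKO arrays and 10.74, 10.48, 10.37, 10.66 and 10.21 in E2f TKO arrays. It read 9.27, 9.36, 9.35 and 9.29 in Myc KO arrays and 9.06, 8.87, 9.08 and 8.75 in control arrays. The groups with E2f1-3 loss on their label overlapped each other and neither of the others, and E2f TKO 2 and 5 lay among or just below the QKO arrays.

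**Figure D1:**
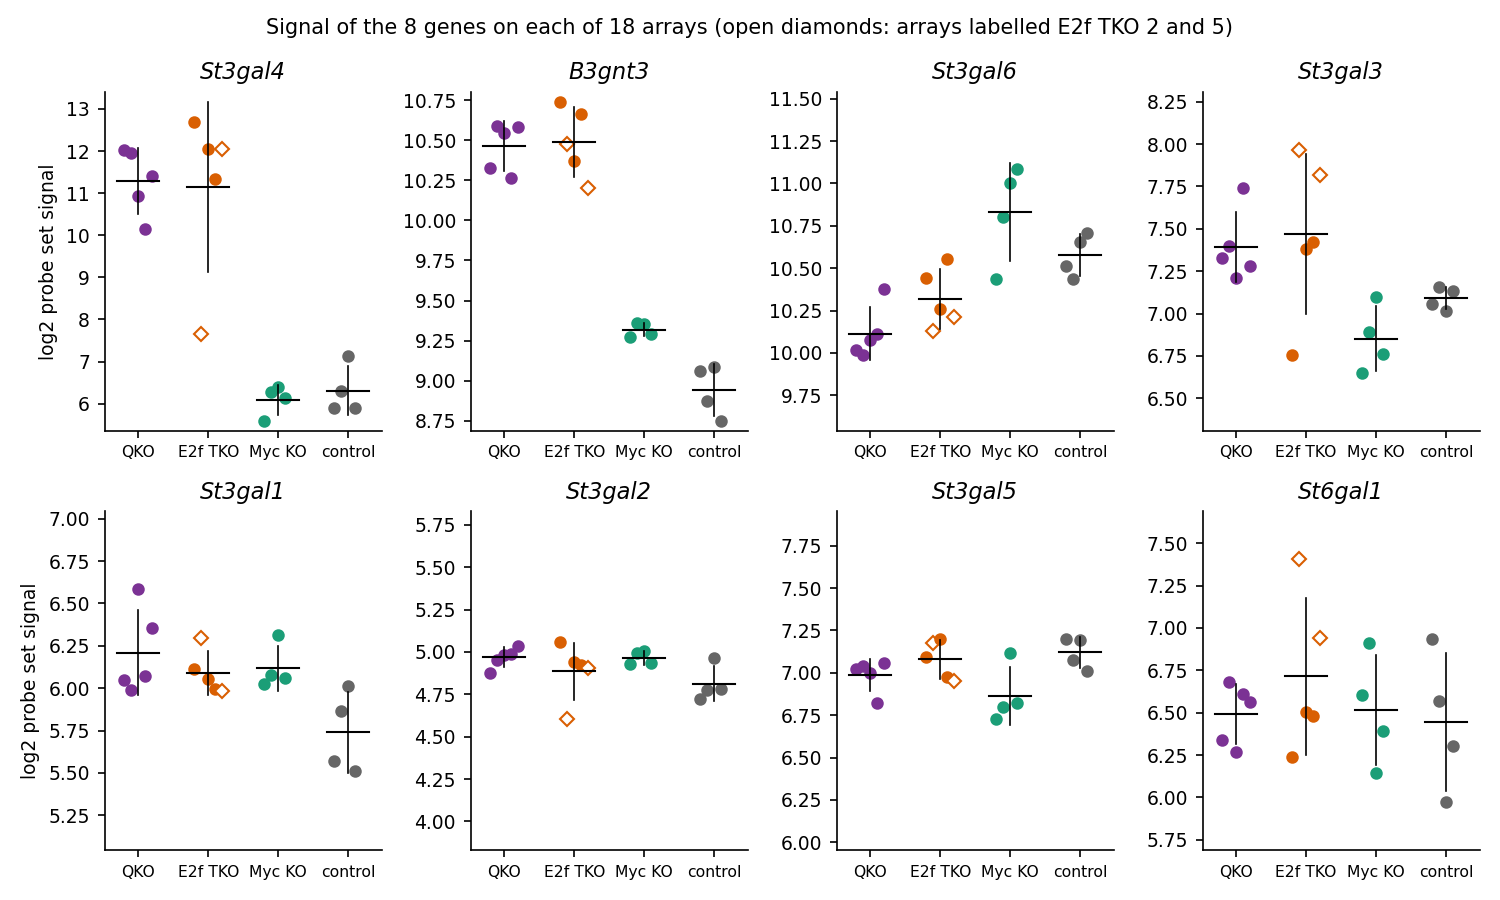
Log2 probe set signal (vertical axis) of each of the 8 genes on each array, by group, with the group mean (horizontal line) and SD (vertical line). Open diamonds are the arrays labelled E2f TKO 2 and 5, and St3gal4 read 7.65 in the first and 12.05 in the second.

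The effect of E2f1-3 deletion in crypts that also lack Myc was read from QKO against Myc KO. These arrays are not those of E2f TKO against control, the comparison that St3gal4 and B3gnt3 were chosen for, although earlier results of all arrays were known. A rise with E2f1-3 loss was what these 2 genes were chosen for, so their p-values here are not independent support. St3gal4 and B3gnt3 rose and St3gal6 fell, while the other 5 genes did not pass. St3gal4 averaged 11.29 ± 0.78 in QKO (SD, n = 5) and 6.09 ± 0.36 in Myc KO arrays (SD, n = 4). The difference was 5.20 ± 0.72 (SE), or 36.7-fold with a 95% interval of 12.8 to 105 (limma adjusted p = 0.000282). B3gnt3 averaged 10.46 ± 0.16 in QKO and 9.32 ± 0.04 in Myc KO arrays. It differed by 1.14 ± 0.11, or 2.21-fold with an interval of 1.89 to 2.58 (limma adjusted p = 9.87e-06). An exact two-sided permutation test over the 126 splits of these arrays gave p = 0.00794 for each of St3gal4, B3gnt3, St3gal6 and St3gal3, unadjusted and the smallest it can give. This value can arise only where the QKO and Myc KO arrays do not overlap. How many of all genes give it was not counted, so it adds no support to the limma results.

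Of the 6 sialyltransferase genes that the choice did not single out, 0 were higher and 1 lower past an adjusted p of 0.05. Of all 18193 genes 4.6% were higher, 3.09% lower and 7.68% either. The median difference of the 6 was 0.05, beside 0.01 over all genes. St3gal4 and B3gnt3 were chosen for a rise with E2f1-3 loss, so they are not counted against these shares. The E2f TKO arrays enter only the estimate of spread here. Without those labelled E2f TKO 2 and 5 the St3gal4 difference kept its size, with a SE of 0.37.

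St3gal6, whose enzyme also sialylates N-acetyllactosamine, moved the other way. It read 10.01, 9.99, 10.08, 10.11 and 10.38 in QKO arrays, against 10.44, 10.80, 11.00 and 11.09 in Myc KO arrays. It read 10.44, 10.13, 10.26, 10.56 and 10.21 in E2f TKO arrays and 10.51, 10.44, 10.66 and 10.71 in control arrays. QKO lay below both Myc KO and control without overlap, by a gap of only 0.06 in each case. The fall was 0.72 on the log2 scale against Myc KO, at -0.72 ± 0.12, or 1.64-fold with an interval of 1.37 to 1.97 (limma adjusted p = 0.00159). It was 1.38-fold against control (-0.47 ± 0.12, adjusted p = 0.0101).

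St3gal6 has 5 probe sets, and they did not all move alike. In QKO against Myc KO the probe sets 1449079_s_at, 1449078_at and 1454246_at differed by -0.72, -0.51 and -0.82. Their limma adjusted p, over all 34945 probe sets with 1 gene, were 0.00168, 0.0274 and 0.00209. The probe sets 1447841_x_at and 1443740_at differed by -0.14 and 0.08 (limma adjusted p = 0.366 and 0.762), the last at signals of 2.72 to 3.47, far below the array medians. Averaged over all 5, St3gal6 differed by -0.42 in QKO against Myc KO (limma adjusted p = 0.00417). In QKO against control that average differed by -0.16 (limma adjusted p = 0.173). With Myc loss alone 1454246_at rose by 0.67 ± 0.15 (adjusted p = 0.00976) and 1447841_x_at by 0.29 ± 0.09 (adjusted p = 0.0347). The 3 other probe sets differed by 0.25, -0.02 and 0.13 and did not pass.

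**Figure D2:**
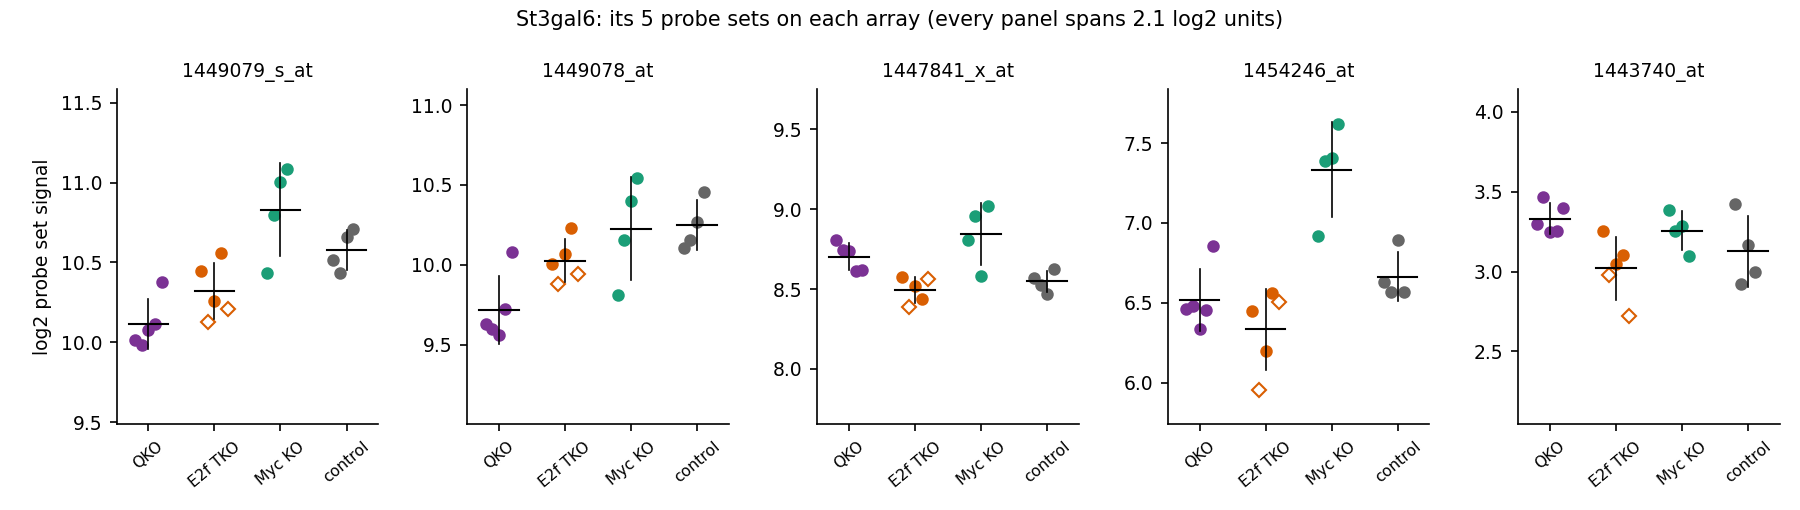
Log2 signal (vertical axis) of the 5 St3gal6 probe sets on each array by group, with group mean and SD, in panels of equal height. Those with the highest 2 means and 1454246_at have a lower QKO than Myc KO mean by 0.51 to 0.82, and 1443740_at does not.

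St3gal3, which acts on both kinds of N-acetyllactosamine, read 7.21 to 7.74 (median 7.33) in QKO arrays against 6.65 to 7.10 (median 6.83) in Myc KO arrays. These groups did not overlap, and the difference of 0.54 ± 0.18 missed the threshold (adjusted p = 0.0777). Leaving out E2f TKO 1, E2f TKO 2, or E2f TKO 2 and 5 together, which enter only the spread, brought it past (limma adjusted p = 0.0111, 0.0462 and 0.0191). Among E2f TKO arrays St3gal3 itself ran from 6.75 in E2f TKO 1 to 7.96 and 7.82 in E2f TKO 2 and 5, the highest readings of the 18. The second St3gal3 probe set, 1421915_a_at, differed by 0.29 ± 0.12 between QKO and Myc KO and did not pass (limma adjusted p = 0.181).

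The remaining 4 genes did not pass between QKO and Myc KO. St3gal1 and St3gal2, whose enzymes sialylate the galactose of core O-glycans, differed by 0.09 (interval -0.17 to 0.36) and 0.003 (interval -0.16 to 0.17). St3gal5, the synthase of the ganglioside GM3, differed by 0.12 (interval -0.05 to 0.30). St6gal1, which caps N-glycans, differed by -0.02 (interval -0.48 to 0.44). For St6gal1 the spread is wide, at 6.27 to 6.68 in QKO arrays and 6.14 to 6.91 in Myc KO arrays. It was highest of all in the array labelled E2f TKO 2, at 7.40. The signals of St3gal1 and St3gal2 were below or near the array medians on most arrays, so a small difference there is not measured well.

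**Figure D3:**
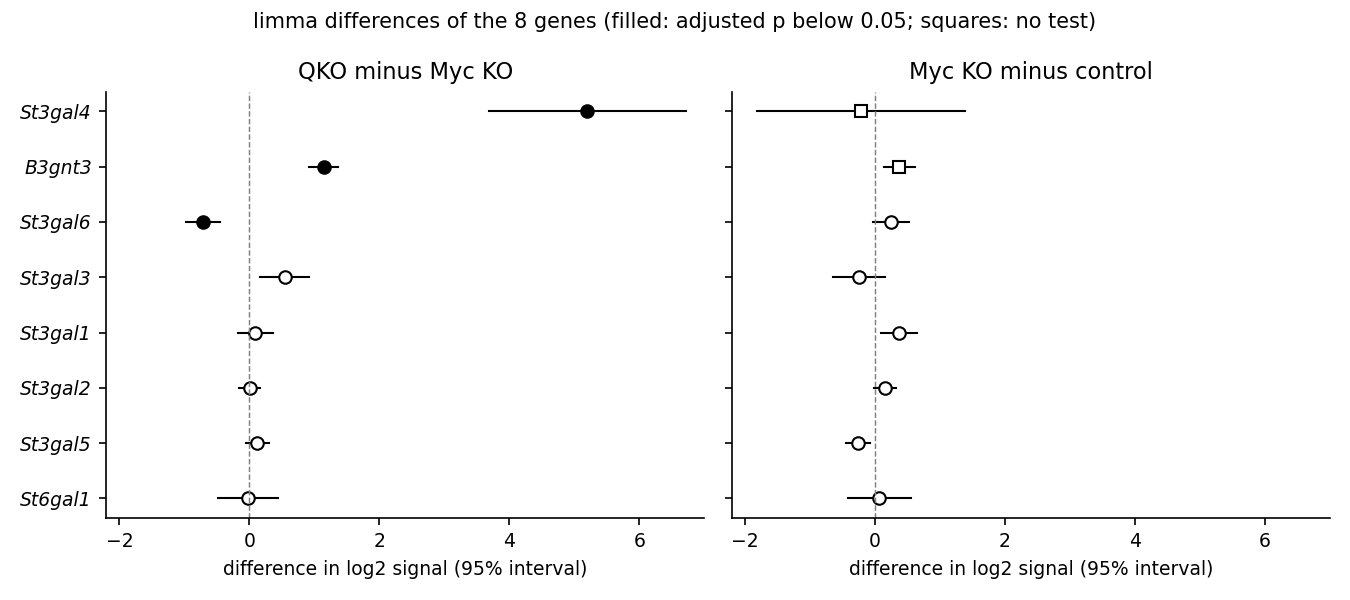
Difference in log2 signal (horizontal axis) with its 95% interval for each gene, in QKO minus Myc KO (left) and Myc KO minus control (right). Filled points passed an adjusted p of 0.05, squares mark values given without a test, and the St3gal4 difference of 5.20 is seen only on the left.

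Loss of Myc alone was set against control. Of the 6 genes that the choice did not single out, 0 passed limma's test, against 8.31% of all genes (3.59% higher and 4.72% lower). An unadjusted p under 0.05 was found for 2 of them, a looser threshold at which the share of all genes was not counted. The median difference of the 6 was 0.11 beside 0.02 over all genes. St3gal4 and B3gnt3 were chosen against these same control arrays, so their values here are descriptions. B3gnt3 averaged 9.32 ± 0.04 in Myc KO and 8.94 ± 0.16 in control arrays (SD, n = 4 each), a difference of 0.38 ± 0.11 or 1.30-fold. The groups did not overlap, by a gap of 0.19.

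St3gal4 differed by -0.21 between Myc KO and control (interval -1.82 to 1.39). St3gal1 read 6.02 to 6.31 in Myc KO and 5.51 to 6.01 in control arrays, and St3gal5 read 6.73 to 7.11 in Myc KO and 7.01 to 7.20 in control arrays. Their differences of 0.38 ± 0.13 and -0.25 ± 0.09 missed the threshold (adjusted p = 0.0863 and 0.0825), though both had an unadjusted p under it. St3gal5 passed without Myc KO 3 (-0.34, limma adjusted p = 0.0253). St3gal2, St3gal3, St3gal6 and St6gal1 differed by 0.15, -0.24, 0.25 and 0.07, none past the test.

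Removal of Myc from crypts that lack E2f1-3 was asked by setting QKO against E2f TKO. None of the 6 genes that the choice did not single out passed limma's test, against 17% of all genes (11.8% with E2f TKO 2 and 5 left out). An unadjusted p under 0.05 was found for 0 of them, and the share of all genes at that threshold was not counted. B3gnt3 averaged 10.46 in QKO and 10.49 in E2f TKO arrays, a difference of -0.03 (interval -0.24 to 0.18), and of -0.13 with E2f TKO 2 and 5 left out. For St3gal4 it was 0.14 (interval -1.30 to 1.57), and with E2f TKO 2 and 5 left out it was -0.73 ± 0.41. St3gal6 differed by -0.21 ± 0.12 (adjusted p = 0.235), and by -0.31 ± 0.13 without E2f TKO 2 and 5 (limma adjusted p = 0.144). Its probe sets did not all move alike. Over all arrays 1449078_at differed by -0.31, but 1454246_at, 1447841_x_at and 1443740_at by 0.18, 0.21 and 0.31. Of these only 1443740_at passed (limma adjusted p = 0.0418), at signals far below the array medians. The E2f TKO arrays are shared with the comparison that chose St3gal4 and B3gnt3, so the values of these 2 genes are descriptions here.

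E2f TKO against control chose St3gal4 and B3gnt3, so its values are given without a test. St3gal4 averaged 11.16 ± 2.02 in E2f TKO (SD, n = 5) and 6.31 ± 0.58 in control arrays (SD, n = 4), a difference of 4.85 ± 0.72 (SE). It was 5.72 with E2f TKO 2 left out, and also with E2f TKO 2 and 5 left out. B3gnt3 averaged 10.49 ± 0.22 in E2f TKO and 8.94 ± 0.16 in control arrays, a difference of 1.55 ± 0.11, and of 1.65 without those 2 arrays. The 6 other genes differed by -0.26 (St3gal6) to 0.38 (St3gal3), with a median of 0.17. With E2f TKO 2 and 5 left out, St3gal3 differed by 0.10 in place of 0.38 and St6gal1 by -0.04 in place of 0.27. Of all genes 2.9% passed in this comparison (1.68% higher and 1.22% lower), and 7.27% did with those arrays left out.

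Joint loss was set against control with the same control arrays. St3gal4 differed by 4.98 ± 0.72 and B3gnt3 by 1.52 ± 0.11, given as descriptions. Among the 6 others St3gal1 rose (0.47 ± 0.13, adjusted p = 0.0104) and St3gal6 fell, 2 of 6 against 26.9% of all genes (14.3% higher and 12.6% lower). St3gal1 read 5.99 to 6.59 in QKO and 5.51 to 6.01 in control arrays, which overlap slightly, and both lie about the array medians. Its second probe set, 1441216_at, read 5.35 to 5.68 in QKO and 5.35 to 5.54 in control arrays and did not pass.

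The question whether losing Myc altered the effect of losing E2f1-3 was put to the interaction, the QKO against Myc KO difference less the E2f TKO against control difference. None of the 6 genes tested passed limma's test, against 0.055% of all genes. An unadjusted p under 0.05 was found for 1 of them, a looser threshold at which the share of all genes was not counted. That gene was St3gal6 (-0.46 ± 0.17, limma adjusted p = 0.714). For B3gnt3 the value was -0.41 ± 0.15, its difference being 1.14 in QKO against Myc KO and 1.55 in E2f TKO against control. For St3gal4 it was 0.35 ± 1.02, and -0.52 with E2f TKO 2 and 5 left out. The last pair are descriptions, since the chosen contrast enters them.

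St3gal4 and B3gnt3 were also set against each other array by array. Over all 18 arrays their Pearson correlation was 0.89. It was 0.18 once each group's mean was taken out, 0.31 without E2f TKO 2 and 0.38 without E2f TKO 2 and 5. In the array labelled E2f TKO 2, B3gnt3 read 10.48, at the middle of its group, where St3gal4 read 7.65. Of the arrays with E2f1-3 loss on their label, that labelled E2f TKO 5 had the lowest B3gnt3 signal, 10.21, and the second highest St3gal4 signal of them.

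**Figure D4:**
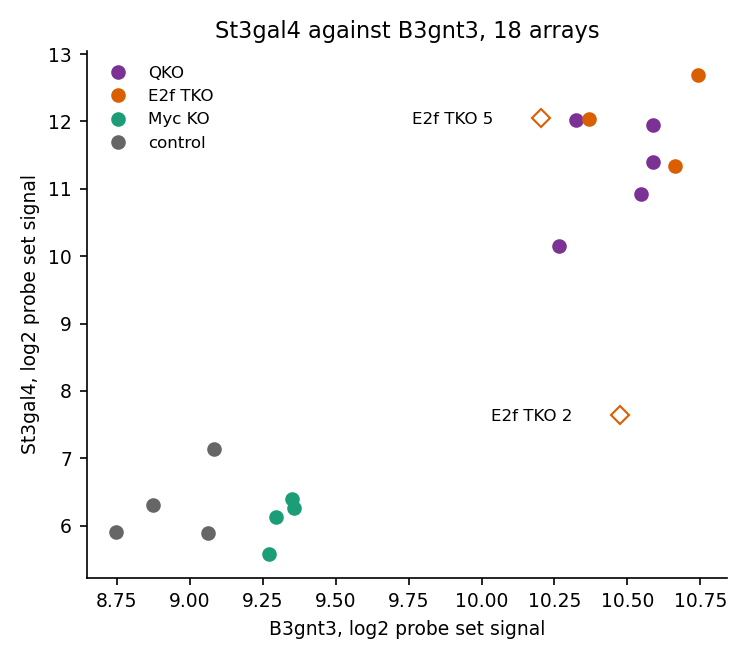
St3gal4 (vertical axis) against B3gnt3 (horizontal axis), both as log2 probe set signals, with 1 point per array coloured by group and the arrays labelled E2f TKO 2 and 5 as open diamonds. The QKO and E2f TKO arrays lie to the upper right apart from E2f TKO 2, which has a B3gnt3 signal of 10.48 and a St3gal4 signal of 7.65.

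The 5 genes most like St3gal4 over the 18 arrays, by Pearson correlation, were Rnf125 (0.93), Epdr1 (0.93), Mep1a (0.92), Dctn3 (0.90) and Ddx49 (0.90). Those most like B3gnt3 were Vopp1 (0.94), Ncoa7 (0.94), Smim8 (0.94), Epdr1 (0.93) and Mep1a (0.92). Epdr1 and Mep1a, which encodes a subunit of the brush-border protease meprin, are on both lists. Mep1a averaged 10.34 in QKO, 10.22 in E2f TKO, 8.49 in Myc KO and 8.57 in control arrays. With group means taken out, the values for St3gal4 were 0.82 for Rnf125, 0.83 for Ddx49 and 0.43 to 0.59 for the others. Rnf125 and Ddx49, like St3gal4, were lower in the array labelled E2f TKO 2 than in that labelled E2f TKO 5, at 7.68 and 8.48 for Rnf125 and at 8.96 and 9.46 for Ddx49. Without E2f TKO 2 the values for St3gal4 were 0.49 for Rnf125, 0.37 for Ddx49, 0.66 for Dctn3, 0.56 for Mep1a and -0.04 for Epdr1. For B3gnt3 they were 0.10 for Smim8 and 0.22 to 0.71 for the others over all 18 arrays. With E2f TKO 2 and 5 left out they were 0.41 for Smim8, 0.12 for Ncoa7, 0.16 for Epdr1, 0.49 for Vopp1 and 0.64 for Mep1a. The arrays share their groups, so these are descriptions of likeness and were not tested.

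Markers of some cell types moved with QKO against Myc KO, where 7.68% of all genes passed limma's test in either direction. The mean of 8 enteroendocrine markers was 9.88 to 10.18 in QKO and 9.52 to 9.80 in Myc KO arrays, with 3 members higher past the test. That of 5 tuft cell markers averaged 7.30 in QKO and 6.97 in Myc KO arrays, without overlap, with 2 higher. That of 4 mast cell markers was 5.52 to 5.68 in QKO and 6.20 to 7.28 in Myc KO arrays, with 3 lower. Means of 7 goblet markers, 12.40 to 12.81 in QKO and 12.56 to 12.76 in Myc KO arrays, overlapped. Those of 8 enterocyte markers, 11.96 to 13.34 in QKO and 13.01 to 13.23 in Myc KO arrays, overlapped too. In both lists 0 members passed, which in lists this short is near the share of 7.68%. In Myc KO against control 8.31% of all genes passed in either direction. The enteroendocrine mean was 9.52 to 9.80 in Myc KO and 9.04 to 9.42 in control arrays, with 2 members higher. The tuft mean there averaged 6.97 in Myc KO and 6.73 in control arrays, without overlap and with 1 member higher, and 1 mast cell marker was higher. The part of these shifts in the sialyltransferase values was not tested.

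The other genes of glycan building were taken as 6 lists with 64 measured members of 66. In QKO against Myc KO 2 rose and 4 fell past limma's test, 9.38% of the 64 beside 7.68% of all genes, with a median of 0.02 beside 0.01. Fut8, the core fucosyltransferase of N-glycans, fell (-0.42 ± 0.08, adjusted p = 0.00388), reading 10.65 to 10.90 in QKO and 11.00 to 11.23 in Myc KO arrays. C1galt1, which builds the core that most gut O-glycans start from, fell by more (-0.79 ± 0.19, adjusted p = 0.0178), reading 7.51 to 8.28 in QKO and 8.67 to 8.87 in Myc KO arrays. Neither pair of groups overlapped. Fut4, a fucosyltransferase of Lewis x, and B3gnt2, the main poly-N-acetyllactosamine enzyme, fell by 0.58 and 0.36 on the log2 scale (adjusted p = 0.0299 and 0.0365). St8sia3, a transferase that adds sialic acid to sialic acid, and Nanp, a phosphatase of sialic acid synthesis, rose by 0.22 and 0.32 (adjusted p = 0.0396 and 0.0443).

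Calls in these lists rested on single arrays in many cases. That of C1galt1 was lost without Myc KO 2 (adjusted p = 0.0540), and that of Fut8 when its probe sets were averaged (-0.19, limma adjusted p = 0.132). Those of Fut4 and B3gnt2 were lost when any 1 of Myc KO 1 to 4 was left out (adjusted p = 0.0510 to 0.0956), Fut4 also without QKO 3 or 4, and B3gnt2 also without QKO 1, 2 or 4 and with quantile normalization. Those of St8sia3 and Nanp were each lost in 12 of the alternatives, and St8sia3 differed by 0.11 when its probe sets were averaged. The count of 6 was 2, 1 and 2 without Myc KO 1, 2 and 3, and 3 and 2 without QKO 3 and 4.

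In Myc KO against control 6 of the 64 rose and 2 fell, 12.5% beside 8.31% of all genes, with a median of 0.10 beside 0.02. The members that rose were St8sia1 (0.27 ± 0.06), St6galnac6 (0.32 ± 0.08), St8sia3 (0.22 ± 0.07), B4galt1 (0.38 ± 0.10), B3gnt5 (0.55 ± 0.16) and Chst4 (0.51 ± 0.15). St8sia1 read 4.65 to 4.75 in control and 4.88 to 5.07 in Myc KO arrays, below the array medians. B3gnt5 read 5.37 to 6.02 in control and 6.07 to 6.69 in Myc KO arrays, below or about them. These signals are not shown to be above background. St6galnac6 is a sialyltransferase of gangliosides, B4galt1 the main galactosyltransferase of N-acetyllactosamine, B3gnt5 the starter of lacto-series glycolipids and Chst4 a sulfotransferase. Mgat4b, which adds an N-glycan branch, and B4gat1, an enzyme of dystroglycan chains, fell (-0.41 ± 0.12 and -0.27 ± 0.08). The adjusted p of the 8 ran from 0.0169 for St8sia1 to 0.0499 for Chst4, and all 8 calls were lost without control 4 (limma adjusted p = 0.0563 to 0.133). The count of 8 was 4, 2, 3 and 0 without control 1, 2, 3 and 4, and 5, 1, 3 and 3 without Myc KO 1, 2, 3 and 4. It was 4 and 5 without E2f TKO 3 and 5, and 5 and 4 without QKO 1 and 2.

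**Figure D5:**
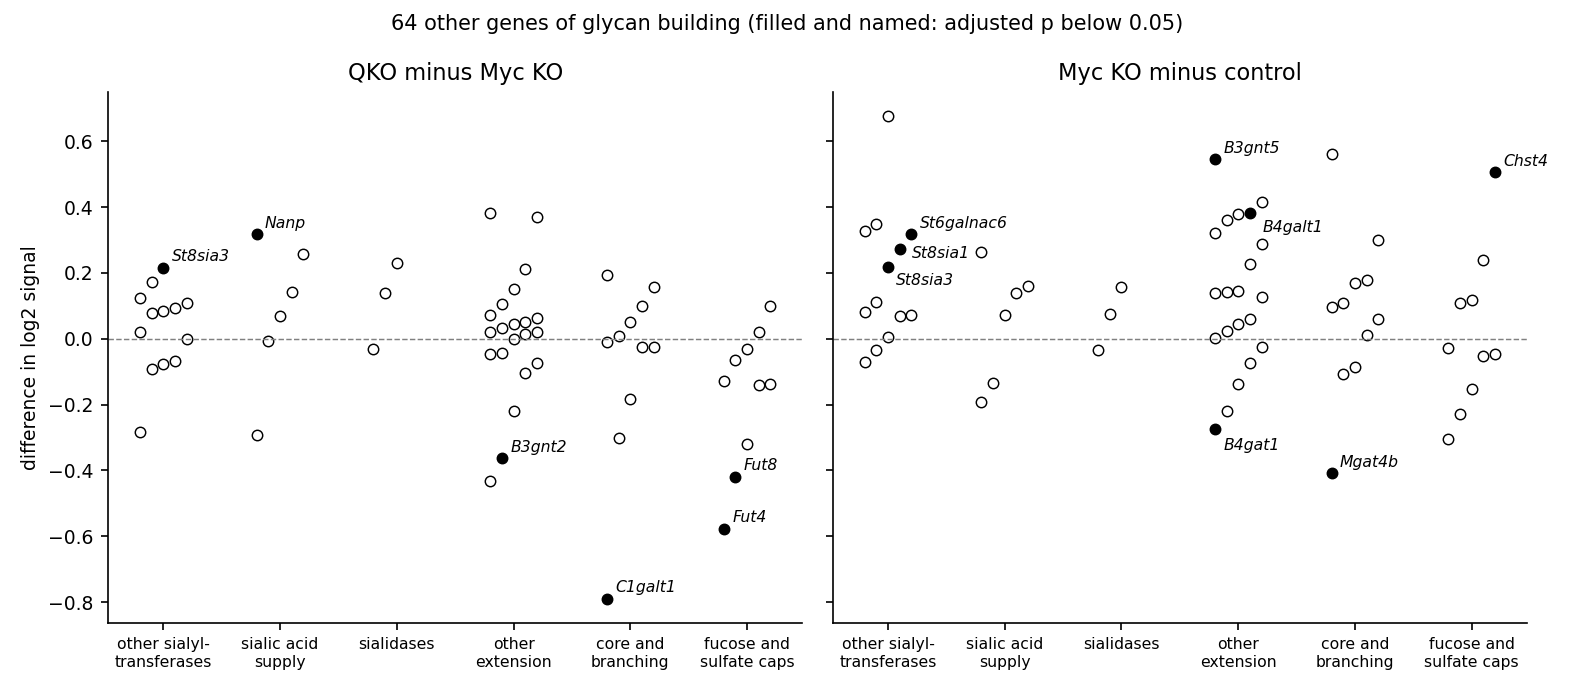
Difference in log2 signal (vertical axis) of 64 other glycan genes in 6 lists, in QKO minus Myc KO (left) and Myc KO minus control (right), with 1 point per gene. Filled, named points passed an adjusted p of 0.05, and C1galt1, at -0.79, lies lowest.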

How the data were processed

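The authors deposited log2 probe set signals for 45101 probe sets on 18 arrays, on a scale read as log2 from their range. How background, normalization and probe summaries were handled is not stated in the labels. Array medians differed by 0.126. Those of Myc KO and QKO arrays, from 6.22 up, all lay above those of control and E2f TKO arrays, up to 6.19. The values were used as deposited, with quantile normalization as an alternative, and small differences across Myc deletion may hold part of this shift. No scanner files, slides or scan dates were analysed here, so these could not be tested as batches.

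Gene names are those of the GEO platform table: 34945 probe sets have 1 symbol, 932 have several, 9160 have none and 64 are controls, and those with 1 symbol gave 18193 genes. A gene is its probe set with the highest mean. The 4 group means were fitted to all 18 arrays in limma 3.58.1 (R 4.3.3), two-sided, with Benjamini-Hochberg adjustment over all 18193 genes and a threshold of 0.05. The fit was tested on simulated data. Figures were drawn with matplotlib 3.10.9.

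The members and lists were chosen with earlier results of these data known. Named genes are the 8 members, the list members past the test in QKO against Myc KO or Myc KO against control (at most 8 each), and the 5 most like St3gal4 and B3gnt3.

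Replicate numbers recur across groups without a stated meaning. Deviations from group means correlated at -0.16 to 0.35 in the 25 pairs of like-numbered arrays, above 0.1 in 13. These values do not settle whether like-numbered arrays share an effect. Arrays were not treated as paired because the numbers have no stated meaning. The alternatives were quantile normalization, genes above the median level, other probe set rules, array weights, a fit of the compared groups alone, eBayes with trend and robust settings, a replicate block, leaving out each array, and leaving out both E2f TKO 2 and 5. The correlations without these arrays were added after seeing the data. Replicate arrays number 4 or 5 a group, which limits the precision of every value.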

Additional observations from a re-analysis of the deposited data

Results flagged for a closer look

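The St3gal4 signal of E2f TKO 2 was 7.65, and its distance from the next array filled 0.732 of the group's range, above the critical 0.71 for 5 arrays. The St3gal5 signal of QKO 4 was 6.82, and that distance filled 0.743 of its group's range. These were 2 of 32 groups of values looked at, of which chance alone flags about 1 in 20. Without the array labelled E2f TKO 2 the St3gal4 difference between E2f TKO and control arrays was 5.72.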

How the results depend on the processing

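The differences of St3gal4 and B3gnt3 between QKO and Myc KO kept their direction and passed in all 27 alternatives that could be run, at 5.01 to 5.48 and 1.11 to 1.19. That of St3gal6 did so in 28, at -0.85 to -0.42. St3gal4 and B3gnt3 were chosen for a rise with E2f1-3 loss, so their passing is not independent support. Many alternatives keep the QKO and Myc KO values as they are, such as leaving out a control or E2f TKO array. In these the size and direction could not change, only the p-value. Leaving out probe sets with IDs ending in _s_at, _x_at or _a_at removes the only probe set of St3gal4 and of B3gnt3. In E2f TKO against control, leaving out 1 array gave 4.46 to 5.72 for St3gal4 and 1.49 to 1.62 for B3gnt3. Of the 6 other genes, 2 in place of 1 passed in QKO against Myc KO in a fit of those groups alone, with array weights and with E2f TKO 2 and 5 left out, and 1 to 2 passed when 1 array was left out. The second was St3gal3, which also passed without E2f TKO 1 or 2. In QKO against control 1 in place of 2 passed with the mean of probe sets, where the call of St3gal6 was lost. With genes above the median level 1 also passed, but there St3gal1 was left out of the fit and not tested. In a fit of those groups alone 3 passed (also St3gal3, limma adjusted p = 0.0456). In Myc KO against control 0 of the 6 other genes passed in the main fit. St3gal5 passed with quantile normalization and without Myc KO 3. St3gal2 passed with the mean of probe sets, and St3gal1 with array weights and with the replicate number as a block. No other alternative called any of the 6. With the replicate number as a block, St3gal4 and B3gnt3 differed by 5.07 and 1.16 between QKO and Myc KO. In Myc KO against control the block took away the calls of St8sia3 and Mgat4b (limma adjusted p = 0.0612 and 0.0622) and gave the St3gal1 call (limma adjusted p = 0.0463). Beside that St3gal1 call, the block moved no count of calls by over 1.5 times, and 6 of 18 arrays correlated best with their own number. The glycan lists had 1 to 7 calls in place of 6 in QKO against Myc KO when 1 array was left out. In Myc KO against control they had 0 to 12 in place of 8, and 20 with array weights. Over all genes array weights called 3427 in Myc KO against control, 2265 in QKO against Myc KO and 1356 in E2f TKO against control, in place of 1511, 1398 and 527. A fit of the compared groups alone called 2681 in Myc KO against control, 253 in E2f TKO against control and 1549 in place of 3100 in QKO against E2f TKO. Leaving out 1 array gave 640 (Myc KO 2) to 2227 genes in Myc KO against control, 918 (Myc KO 3) to 2008 in QKO against Myc KO, 277 (control 3) to 830 (E2f TKO 1) in E2f TKO against control and 6 to 14 in place of 10 in the interaction. Signals near or below the array medians limit what can be said of St3gal1, St3gal2, St8sia1, B3gnt5 and the low side of St3gal4.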

Other observations

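In QKO against control crypts 16 of the 64 other glycan genes rose and 7 fell, 35.9% beside 26.9% of all genes. Among those that rose were B4galt4, a galactosyltransferase (0.75 ± 0.15, adjusted p = 0.00121), Gcnt3, which makes branched mucin cores (0.76 ± 0.18, adjusted p = 0.00434), and Cmas, which activates sialic acid (0.41 ± 0.08, adjusted p = 0.00120). B4galt4 read 8.32 to 8.53 in QKO and 7.51 to 7.74 in control arrays. Fut4 and C1galt1 fell (-0.88 ± 0.16 and -0.87 ± 0.19, adjusted p = 0.000555 and 0.00315). These genes were picked after their values were seen, and the limma p-values are adjusted over all genes.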
